A study of Sus scrofa with 18 samples.

Results

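This report describes 10 genes of heat shock proteins and chaperones, HSPA8, HSPH1, DNAJB1, HSP90AA1, HSP90AB1, HSPB1, CRYAB, HSPA5, HSPD1 and HSPE1, which were picked by gene symbol from 27339 rows of a deposited table of RNA-seq read counts. All 10 were present in the table. The DIK group held 9 libraries of tumour tissue from a double knock-in pig that carries elements of the binary Tet-on system, a switch that turns a transgene on when doxycycline is given, and of the phiC31 integrase system. The WT group held 9 libraries of normal tissue from age-matched wild-type pigs. Each group had 3 libraries labelled nose, 3 labelled mouth and 3 labelled scrotum. DIK founders and wild-type animals alike were treated with doxycycline ("Dox" in the labels) at an age of 7 months, so the drug is shared by both groups, and tissue was taken 8 months later. Of 3 treated DIK founders only 1 formed tumours at these sites and gave every DIK library, so the 9 tumour libraries share 1 animal. How many wild-type animals were sampled, and which gene the switch controls, are not stated in the labels. The p-values below therefore measure the spread between these libraries, which may be technical, and not between pigs.

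Chaperones bind proteins that are not folded and keep them from clumping until they reach their final shape. The cytosolic HSP70 system works as a cycle in which a J-domain protein such as DNAJB1 delivers the client, HSPA8 holds it, and a nucleotide exchange factor such as HSPH1 releases it. HSP90 then matures clients such as kinases and steroid receptors, small heat shock proteins such as HSPB1 and CRYAB hold unfolded chains without using ATP, HSPA5 does the work of HSP70 inside the endoplasmic reticulum, and HSPD1 with its lid HSPE1 folds proteins inside mitochondria. Many chaperone genes are induced by heat shock factors when unfolded proteins accumulate, while HSPA8 and HSP90AB1 are the forms made all the time.

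The libraries held between 418665 counts (WT nose replicate 1) and 5041470 counts (WT nose replicate 3). A floor of 3 counts, below which a level is uncertain, thus stood for 0.483 to 5.76 CPM (the count divided by the scaled library size, in its usual unit). Skeletal muscle genes summed to 245 to 1217 CPM in the DIK libraries, against 122682 to 375213 CPM in the WT nose and scrotum libraries and 7006 to 16310 CPM in the WT mouth libraries. Smooth muscle genes summed to 1186 to 5725 CPM in the DIK libraries, against 64964 to 122431 CPM in the WT mouth libraries and 6349 to 45283 CPM in the other WT libraries. Squamous epithelium genes, among them keratins, summed to 98118 to 141676 CPM in the DIK libraries, against 854 to 2673 CPM in 8 WT libraries and 63429 CPM in WT scrotum replicate 2, which stands apart from the other WT libraries on this list. WT nose replicate 1 stands apart in depth. Posterior HOX genes, which mark the rear of the body, summed to 0.625 to 4.19 CPM in DIK scrotum and 3.36 to 6.52 CPM in WT scrotum, and to 11.7 to 20.4 CPM in DIK mouth and 42.2 to 70.8 CPM in WT mouth. These levels go against the mouth and scrotum labels, and the groups are named below as labelled. Tumour and normal tissue thus differ in cell types as well as in genotype, and in bulk tissue fewer cells of a type and less RNA per cell cannot be told apart.

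At the nose label 3 of the 10 genes were higher in DIK tumours and 4 were lower, at the mouth label 5 were higher and 2 lower, and at the scrotum label 3 were higher and 1 lower, by edgeR's quasi-likelihood test at a Benjamini-Hochberg adjusted p under 0.05 over 12895 genes. Of all genes tested, 42.1% were called at the nose label (21.9% higher and 20.1% lower), 46.9% at the mouth label (22.7% higher and 24.3% lower) and 43.5% at the scrotum label (19.4% higher and 24% lower), so a call as such does not set the chaperones apart. HSPA8 and DNAJB1 were higher at all 3 labels and CRYAB was lower at all 3, where 9% of all genes were called higher at every label and 8.76% lower. HSPA5 was lower in the nose tumours and higher in those of the other labels. HSP90AB1 and HSPE1 were called at no label. Where groups of 3 libraries are said below not to overlap, the share over all genes is not given. Such a separation describes the libraries and does not set a gene apart.

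**Figure D1:**
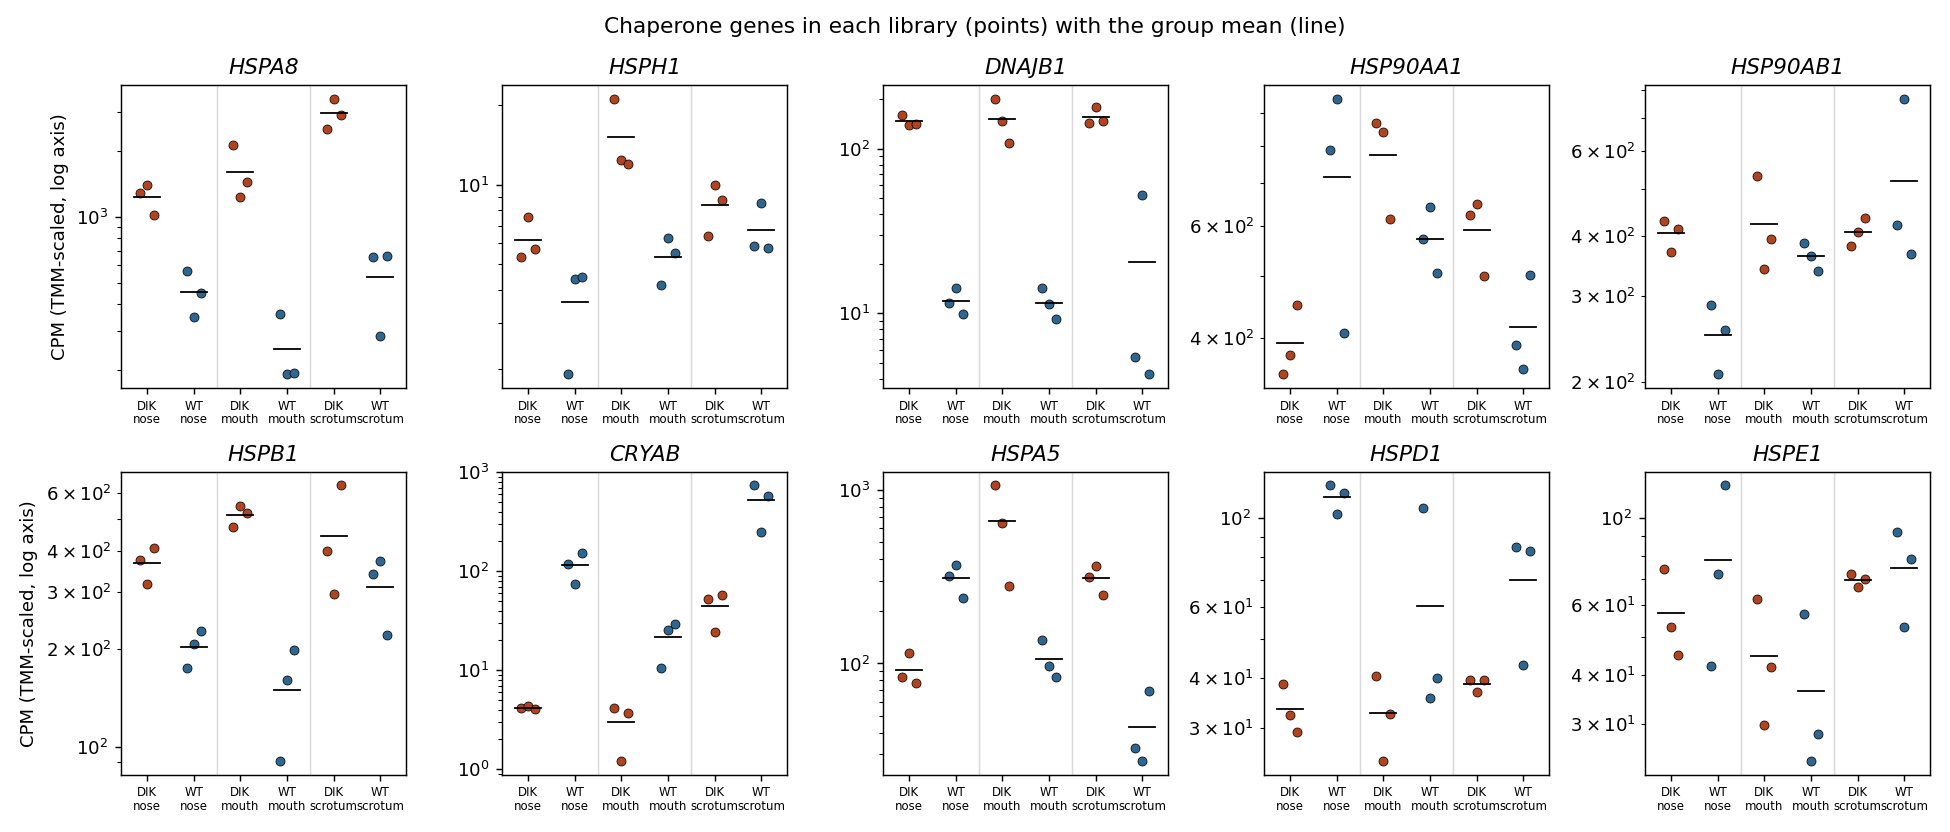
Level of each of the 10 chaperone genes in every library, in CPM on a log axis, with DIK tumours (red) beside WT tissue (blue) at each label; points are libraries and lines are means of 3 libraries. The DIK points of HSPA8 and DNAJB1 lie above the WT points at all 3 labels and those of CRYAB below them.

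**Figure D2:**
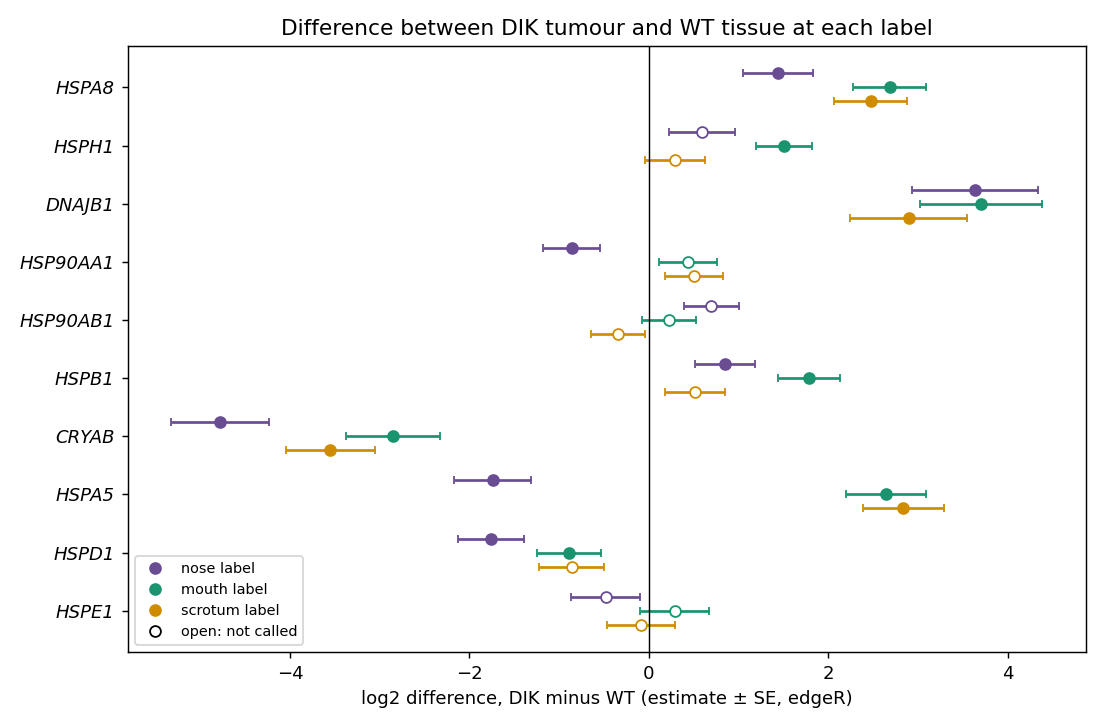
Log2 difference, DIK minus WT, of each gene at the nose, mouth and scrotum labels, with the standard error from edgeR as a bar; filled points passed an adjusted p of 0.05. HSPA5 lies at -1.74 at the nose label and at 2.64 and 2.83 at the mouth and scrotum labels.

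HSPA8, the constitutive cytosolic HSP70, took the largest share of the reads of the 10 genes in every DIK library. It made up 32.1 to 62.9% of their summed counts in the DIK libraries and 12.3 to 25.8% in the WT libraries. At the nose label HSPA8 had 1282, 1399 and 1016 CPM in DIK tumours, against 566, 349 and 447 CPM in WT tissue. At the mouth label it had 2121, 1227 and 1443 CPM in DIK tumours, against 360.0, 192 and 194 CPM in WT tissue. At the scrotum label it had 2518, 3457 and 2905 CPM in DIK tumours, against 654, 285 and 664 CPM in WT tissue. Every DIK library was above every WT library of any label, and the scrotum tumours were the highest. The log2 difference was 1.44 ± 0.39 (SE; edgeR adjusted p = 0.00648) at the nose label, 2.68 ± 0.41 (edgeR adjusted p = 4.47e-05) at the mouth label and 2.47 ± 0.40 (edgeR adjusted p = 8.85e-05) at the scrotum label. The members' summed share of all counts was 0.252 to 0.561% in the DIK libraries and 0.165 to 0.303% in the WT libraries.

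DNAJB1, the J-domain partner that is itself a classic heat shock target, showed the largest log2 rise of the 10 at the nose and mouth labels, and at the scrotum label a rise close to that of HSPA5. It had 160.2, 139 and 142 CPM in the nose tumours, against 11.5, 14.2 and 9.83 CPM in WT nose tissue. It had 202, 147 and 108 CPM in the mouth tumours, against 14.3, 11.3 and 9.18 CPM in WT mouth tissue. It had 143, 181 and 147 CPM in the scrotum tumours, against 5.45, 52.2 and 4.26 CPM in WT scrotum tissue. The 9 tumour libraries stayed within a narrow band, while WT scrotum replicate 2 was several times above every other WT library. The difference was a 12.4-fold rise at the nose label (edgeR adjusted p = 7.5e-04), a 13.0-fold rise at the mouth label (edgeR adjusted p = 3.86e-04) and a 7.44-fold rise at the scrotum label (edgeR adjusted p = 0.00205). Without WT scrotum replicate 2 the scrotum log2 difference was 5.02, against 2.90 ± 0.65 (SE) with it. That replicate is the WT library with the high squamous epithelium sum, and its immediate early genes, which respond within minutes to stimulation, summed to 291 CPM against 103 and 123 CPM in the other WT scrotum libraries. In the DIK libraries the immediate early genes summed to 360 to 2144 CPM and in the remaining WT libraries to 86.1 to 147.8 CPM. The part of cell type or of tissue handling in the DNAJB1 difference was not tested.

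HSPH1, the exchange factor of HSP70, gave few reads, between 1 and 67 counts per library. It had 21.2, 12.4 and 11.99 CPM in the mouth tumours, against 4.18, 6.27 and 5.51 CPM in WT mouth tissue, and these groups did not overlap. The log2 difference was 1.505 ± 0.316 (SE; edgeR adjusted p = 8.18e-04) at the mouth label. It was 0.59 ± 0.37 (edgeR adjusted p = 0.211) at the nose label and 0.29 ± 0.33 (edgeR adjusted p = 0.506) at the scrotum label, and neither passed. The nose groups did not overlap, while the scrotum groups did. As a mean of the labels the HSPH1 difference was 0.79 ± 0.20 (edgeR adjusted p = 0.00167), where 8272 of 12895 genes were called. Within a library the ratio of counts does not depend on how libraries are scaled, and 6 ratios of partner genes were tested by an exact two-sided permutation test that exchanged DIK and WT within labels, in which the smallest p that 8000 assignments can give is 0.00025. The ratio HSPH1/HSPA8 was lower in DIK by 2.55-fold (exact p = 0.003, adjusted over the 6 ratios 0.006). That test includes WT nose replicate 1, whose 1 count of HSPH1 lies below the floor of 3 counts. When any 1 library was left out, the adjusted permutation p was at most 0.012. The ratio DNAJB1/HSPA8 was higher in DIK by 2.82-fold (exact p = 0.0128, adjusted 0.0191), and its adjusted p went up to 0.0555 when DIK scrotum replicate 1 or 2, or WT scrotum replicate 1 or 3, was left out. DIK and WT ratios overlapped at the nose label for HSPH1/HSPA8 and at the scrotum label for DNAJB1/HSPA8. HSPA5/HSPA8 was 2.02-fold lower in DIK and did not pass (exact permutation p = 0.063, adjusted 0.0753). As a mean over the labels, the 3 genes of the cycle thus changed in unequal proportion between tumour and WT libraries.

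Of the other genes of the cytosolic HSP70 system, 25 were tested, and 3 were higher and 4 lower at the nose label, 10 higher and 3 lower at the mouth label, and 9 higher and 6 lower at the scrotum label. The median log2 difference of the list was 0.37, 0.49 and 0.08 at the nose, mouth and scrotum labels, where that of all genes tested was 0.03, -0.04 and -0.09. HSPA4, an HSP110-type exchange factor related to HSPH1, was higher at all 3 labels, with log2 differences of 1.73, 1.88 and 1.91. HSPA6, an HSP70 made under strong stress, was higher at the mouth and scrotum labels (2.62 and 2.97; edgeR adjusted p = 0.00133 and 6.67e-04) and was not called at the nose label (0.70). DNAJB5, a J-domain protein, was lower at all 3 labels, with log2 differences of -2.73, -4.13 and -3.65. BAG3, which links HSP70 to autophagy and is abundant in muscle, was lower at the nose and scrotum labels (-1.58 and -1.26; edgeR adjusted p = 3.4e-04 and 0.00174). At the mouth label BAG3 averaged 31.5 ± 7.5 CPM in DIK tumours and 19.7 ± 2.0 CPM in WT tissue (SD, n = 3 each), groups that did not overlap, and its log2 difference of 0.68 was not called (edgeR adjusted p = 0.0594).

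HSP90AA1, the inducible cytosolic HSP90, was lower in the nose tumours only by a small margin. It had 352, 376 and 451 CPM in the nose tumours, against 789, 948 and 407 CPM in WT nose tissue, and the groups overlapped because WT nose replicate 3 lay among the tumours. The log2 difference was -0.86 ± 0.32 (SE; edgeR adjusted p = 0.0379), and it lost its call in 10 of the 18 fits that left out 1 library. Differences of 0.44 at the mouth label and 0.50 at the scrotum label did not pass (edgeR adjusted p = 0.277 and 0.213). HSP90AB1, the constitutive form, had 430.2, 371 and 413 CPM in the nose tumours, against 288, 207 and 255 CPM in WT nose tissue. The nose groups did not overlap, yet the log2 difference of 0.70 ± 0.30 (SE) missed the threshold (edgeR adjusted p = 0.0714) and passed it without the 2 WT libraries that stood apart (0.77, edgeR adjusted p = 0.0284). At the scrotum label HSP90AB1 had 381, 408 and 435 CPM in DIK tumours, against 422, 768 and 367 CPM in WT tissue, where WT replicate 2 was the highest of all libraries. The scrotum log2 difference of -0.35 ± 0.30 was not called, and it was 0.05 without that library. The ratio HSP90AA1/HSP90AB1 did not differ detectably between DIK and WT (mean log2 difference -0.16, exact permutation p = 0.649).

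Among 13 genes that assist HSP90, 2 were higher and 2 lower at the nose label, 3 higher and 2 lower at the mouth label, and 4 higher and 3 lower at the scrotum label. Their median log2 differences were -0.01, 0.20 and 0.38. FKBP5, a co-chaperone of the glucocorticoid receptor that is induced by that receptor, was lower at all 3 labels, with log2 differences of -2.74, -3.10 and -2.88. STIP1, which hands clients over between HSP70 and HSP90, was higher at the mouth and scrotum labels (1.25 and 1.12; edgeR adjusted p = 6.77e-04 and 0.00171). UNC45B, the myosin chaperone of striated muscle, was lower at the nose and scrotum labels (-7.64 and -9.30; edgeR adjusted p = 4.19e-06 and 1.58e-06), with 0.41 ± 1.64 (SE) at the mouth label (edgeR adjusted p = 0.857).

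The small heat shock proteins HSPB1 and CRYAB were called in opposite directions at the nose and mouth labels. CRYAB, the alpha B crystallin that is abundant in striated muscle and lens, was lower in the tumours at every label. It had 4.13, 4.31 and 4.10 CPM in the nose tumours, against 119, 75.2 and 153 CPM in WT nose tissue. It had 4.11, 1.21 and 3.73 CPM in the mouth tumours, against 10.6, 25.3 and 29.6 CPM in WT mouth tissue. It had 52.3, 24.3 and 57.5 CPM in the scrotum tumours, against 736, 252 and 578 CPM in WT scrotum tissue. The groups did not overlap at any label, and the scrotum libraries were the highest within each genotype. CRYAB was 27.5-fold lower at the nose label (log2 difference -4.78 ± 0.55 SE, edgeR adjusted p = 2.81e-06), 7.24-fold lower at the mouth label (-2.86 ± 0.52, edgeR adjusted p = 2.63e-04) and 11.7-fold lower at the scrotum label (-3.55 ± 0.50, edgeR adjusted p = 1.84e-05). Summed skeletal and smooth muscle genes were also lower in the tumours at every label. Skeletal muscle genes, 19 of 20 of them measured, summed to 245 to 1217 CPM in DIK nose and 122682 to 168393 CPM in WT nose, to 326 to 407 CPM in DIK mouth and 7006 to 16310 CPM in WT mouth, and to 599 to 683 CPM in DIK scrotum and 147215 to 375213 CPM in WT scrotum. In the mouth tumours MYH4, MYH7, NEB, TNNT3 and MYBPC1 had no count, and in the scrotum tumours MYBPC1 and ATP2A1 had none, while every marker had counts in the nose tumours and in each WT group. The WT mouth sum came mostly from TPM2, DES and CKM, at means of 5118, 4834 and 2221 CPM, while the skeletal muscle genes MYH1, TTN and ACTA1 averaged 40.7, 33.0 and 210.4 CPM there. Smooth muscle genes, all 10 measured, summed to 3388 to 4289 CPM in DIK mouth and 64964 to 122431 CPM in WT mouth. MYH11, the smooth muscle myosin, averaged 15.7 CPM in DIK mouth and 6462 CPM in WT mouth, and MYOCD had no count in DIK mouth. The smooth muscle sums of WT nose and WT scrotum came mostly from ACTA2, at means of 25739 and 19239 CPM. MYH11 averaged 282 and 93.6 CPM there, against 19.1 and 9.50 CPM in the tumours. SMTN of the same list was not lower in those tumours, at 29.0 against 23.2 CPM (nose) and 35.6 against 29.8 CPM (scrotum). Within WT, CRYAB averaged 522, 116 and 21.8 CPM in scrotum, nose and mouth tissue. The skeletal muscle sums were ordered alike there, at means of 283967, 140795 and 12771 CPM. Across all groups the order was not always alike. CRYAB averaged 44.7 CPM in DIK scrotum, 4.18 CPM in DIK nose and 21.8 CPM in WT mouth. The skeletal muscle sums averaged 648, 797 and 12771 CPM in the same groups. TPM2 made up most of the DIK scrotum sum, at 606 CPM, and ACTA1 most of the DIK nose sum, at 525 CPM. The part of skeletal or smooth muscle content in the CRYAB difference was not tested.

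Of 8 other small heat shock proteins, 5 had enough counts to test, and 4, 4 and 5 of these were lower at the nose, mouth and scrotum labels, with none higher. HSPB6, a partner of actin in smooth and striated muscle, averaged 12.9 ± 0.7 CPM in the nose tumours and 1314 ± 357 CPM in WT nose tissue (SD, n = 3 each). HSPB3 and HSPB7, both known from heart and skeletal muscle, were at or near 0 in the tumours. HSPB3 had no count in any of the 9 DIK libraries, against 263, 37 and 315 counts summed over the WT nose, mouth and scrotum libraries. Set against a floor of 3 counts over the group, it was at least 127-fold lower at the nose label, 8.63-fold lower at the mouth label and 74.3-fold lower at the scrotum label. The median log2 difference of the 5 genes was -6.66, -6.19 and -8.68 at the 3 labels, or -6.66, -3.11 and -6.21 with the genes at 0 set to their bound.

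HSPB1, known as HSP27 and common in squamous epithelium, was higher in the nose and mouth tumours. It had 473, 547 and 524 CPM in the mouth tumours, against 90.8, 160.2 and 198 CPM in WT mouth tissue. The groups were clearly apart, with a log2 difference of 1.78 ± 0.34 (SE; edgeR adjusted p = 4.0e-04). At the nose label HSPB1 had 376, 316 and 407 CPM in DIK tumours, against 175, 208 and 227 CPM in WT tissue. The nose groups did not overlap, but the log2 difference of 0.85 ± 0.34 (edgeR adjusted p = 0.0499) lay at the threshold, lost its call in 11 of the 18 fits that left out 1 library, and was 0.71 (edgeR adjusted p = 0.122) without the 2 WT libraries that stood apart. At the scrotum label the groups overlapped and the difference of 0.51 ± 0.33 was not called (edgeR adjusted p = 0.226). The ratio HSPB1/CRYAB was 7.66 to 450 in the DIK libraries and 0.381 to 8.55 in the WT libraries. Within each label the DIK ratios lay above the WT ratios, and the mean log2 difference was 4.78 (exact permutation p = 0.00025, adjusted over the 6 ratios 7.5e-04). CRYAB alone did not overlap between DIK and WT at any label, so this ratio is no separate evidence on HSPB1.

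**Figure D3:**
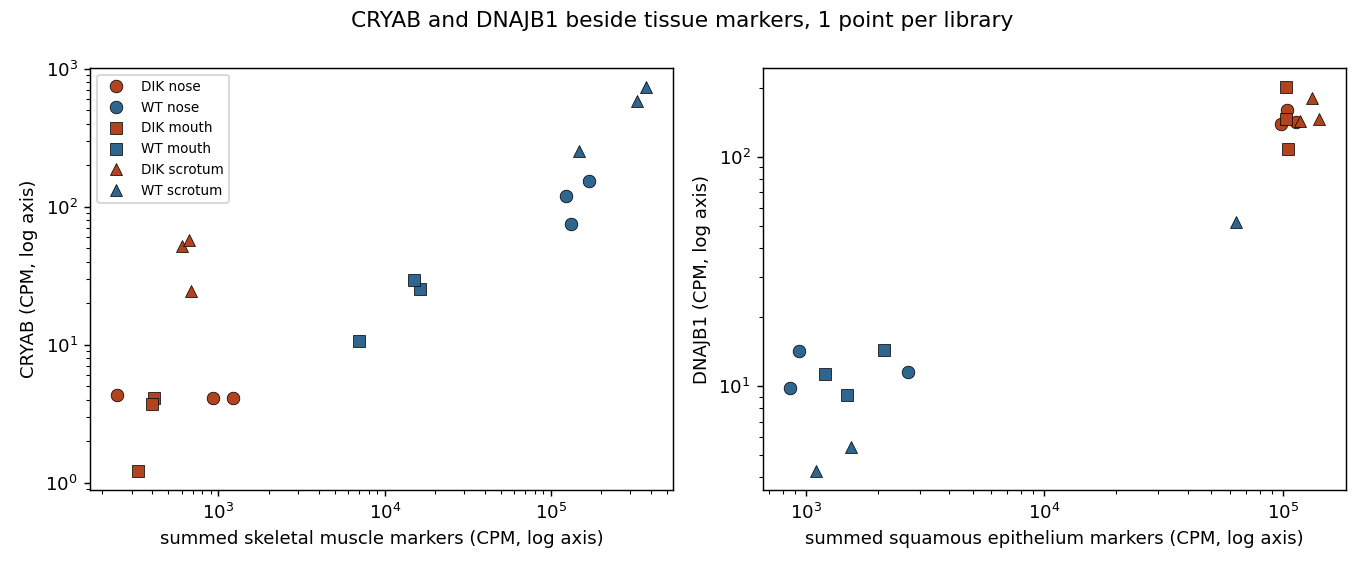
Left, CRYAB against the summed skeletal muscle markers, and right, DNAJB1 against the summed squamous epithelium markers, both in CPM on log axes, with 1 point per library (red DIK, blue WT; circles nose, squares mouth, triangles scrotum). WT scrotum replicate 2, at 63429 CPM of squamous markers, is the WT point with the highest DNAJB1.

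**Figure D4:**
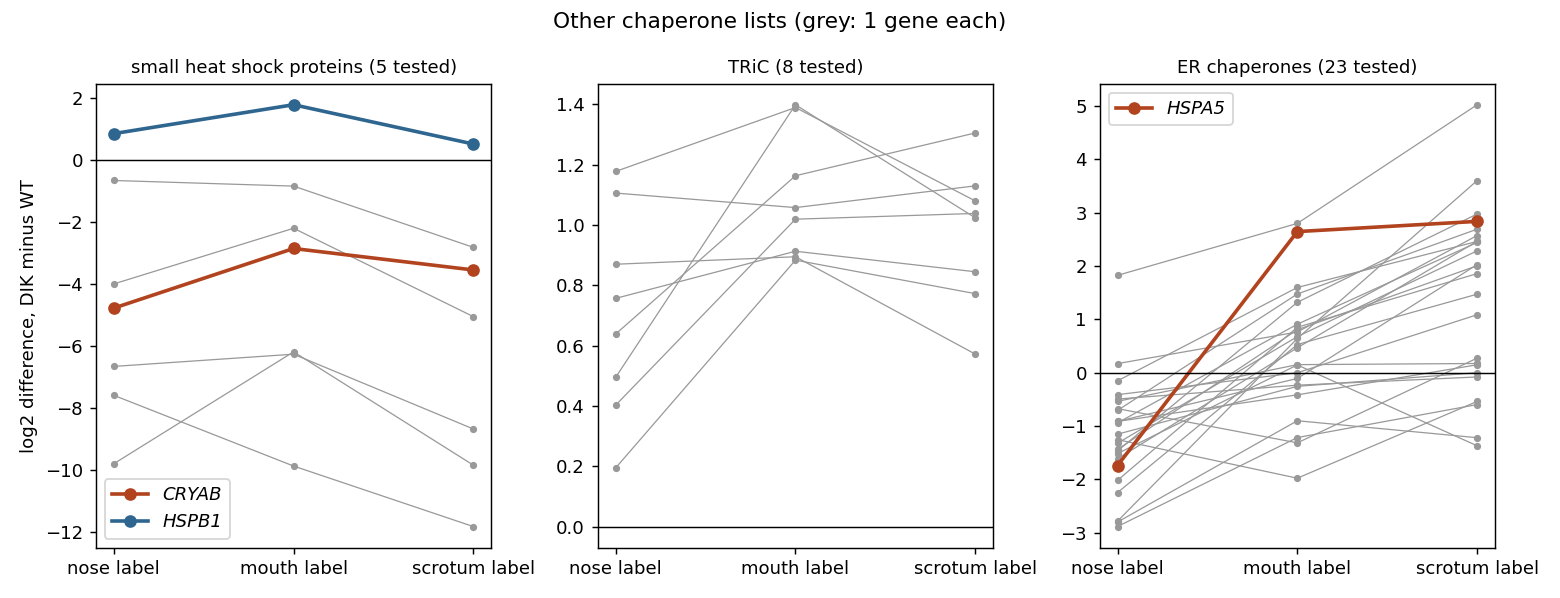
Log2 difference, DIK minus WT, of each tested gene of 3 other chaperone lists (grey) at the 3 labels, with CRYAB, HSPB1 and HSPA5 drawn in colour in the list each belongs to by function. Most small heat shock proteins lie below 0 and TRiC subunits above 0 at every label, and most endoplasmic reticulum genes lie lower at the nose label than at the scrotum label.

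HSPA5, also called BiP, the HSP70 of the endoplasmic reticulum and a standard marker of the unfolded protein response, changed in opposite directions between labels. It had 84.0, 115 and 77.5 CPM in the nose tumours, against 321, 368 and 238 CPM in WT nose tissue. It had 1057, 645 and 279 CPM in the mouth tumours, against 137, 96.6 and 83.1 CPM in WT mouth tissue. It had 313, 365 and 248 CPM in the scrotum tumours, against 32.7, 27.5 and 69.5 CPM in WT scrotum tissue. No DIK and WT group overlapped at a label, the mouth tumours varied the most among themselves, and WT nose was the highest WT group. The log2 difference was -1.74 ± 0.43 (SE; edgeR adjusted p = 0.00345) at the nose label, 2.64 ± 0.44 (edgeR adjusted p = 1.12e-04) at the mouth label and 2.83 ± 0.45 (edgeR adjusted p = 6.3e-05) at the scrotum label.

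The difference between labels was tested as an interaction. The DIK minus WT difference of HSPA5 was greater at the mouth than at the nose label by 4.39 ± 0.62 (log2, SE; edgeR adjusted p = 2.46e-04), and greater at the scrotum than at the nose label by 4.58 ± 0.62 (edgeR adjusted p = 2.71e-04). By edgeR HSPA5 alone of the 10 genes was called in these 2 contrasts, where 8.6% and 7.65% of all genes were called. There 4 and 3 of the 10 had an unadjusted p under 0.05, DESeq2 called 2 in each, and limma-voom called 4 and 2. Between the scrotum and mouth labels none of the 10 was called by edgeR (13.1% of all genes), 2 had an unadjusted p under 0.05, DESeq2 called 0 and limma-voom called 1. Within DIK, HSPA5 was higher in the mouth than in the nose tumours by 2.84 ± 0.45 (edgeR adjusted p = 0.00248), and within WT it was lower in mouth than in nose tissue by 2.92-fold (edgeR adjusted p = 0.0143), a call lost without WT nose replicate 2 or without WT mouth replicate 2 or 3 (adjusted p up to 0.0700).

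By their median DIK minus WT difference, the other endoplasmic reticulum folding genes were lowest at the nose label and highest at the scrotum label. Of 23 tested, 1 was higher and 11 were lower at the nose label, 6 higher and 4 lower at the mouth label, and 14 higher and 2 lower at the scrotum label. The median log2 difference was -1.15, 0.47 and 1.86, where that of all genes tested was 0.03, -0.04 and -0.09. HSP90B1, the HSP90 of this compartment, which was named after its values were seen, had log2 differences of -1.44, 0.80 and 2.00 and was called at all 3 labels (edgeR adjusted p = 4.93e-04, 0.0216 and 1.86e-05). SDF2L1, a partner of HSPA5, averaged 4.67 ± 2.51 CPM in the nose tumours and 31.3 ± 15.4 CPM in WT nose tissue, and 10.1 ± 2.4 CPM in the scrotum tumours and 0.874 ± 0.340 CPM in WT scrotum tissue (SD, n = 3 each). In the interaction contrasts 11 of the 23 had a greater DIK minus WT difference at the mouth than at the nose label and 16 at the scrotum than at the nose label, and none a smaller one. Between scrotum and mouth, 5 of the 23 had a greater difference at the scrotum label and 0 a smaller one. Of all genes tested, 8.6%, 7.65% and 13.1% were called in these contrasts in either direction. Within DIK, 0 of the 23 were called by edgeR between mouth and nose (6 had an unadjusted p under 0.05), where 1.54% of all genes were. Between the scrotum and nose tumours 7 were higher in scrotum, where 5.84% of all genes were called. Within WT, 11 were lower and 1 higher in mouth than in nose, where 19.8% of all genes were called. Another contrast, WT scrotum against nose, had 15 lower, where 6.05% of all genes were called. ERO1A, the oxidase that forms disulfide bonds, was higher at all 3 labels (1.82, 2.80 and 5.02). DNAJC10 of the same list was lower at all 3 labels, with log2 differences of -2.80 at nose and -1.22 at scrotum. XBP1, the transcription factor of secretory cells and of the unfolded protein response, was lower at the nose and mouth labels (-2.89 and -1.22; edgeR adjusted p = 9.24e-06 and 0.00776).

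Lists of secretory gland and plasma cell markers, both of which are cells rich in endoplasmic reticulum, were added after the data were seen. The gland genes, 13 of 14 measured, summed to 197 to 481 CPM in DIK nose and 1464 to 2295 CPM in WT nose. At the other labels they summed to 273 to 466 CPM in DIK mouth and 29.4, 51.6 and 2540 CPM in WT mouth, and to 220 to 428 CPM in DIK scrotum and 41.4, 52.0 and 660 CPM in WT scrotum. The WT mouth and WT nose sums were made up in part of unlike genes. KRT7 averaged 527 CPM in WT mouth and 832 CPM in WT nose. LTF averaged 191 CPM in WT mouth and 5.61 CPM in WT nose, and SLC12A2 averaged 10.3 and 286 CPM. AGR2, a disulfide isomerase of mucus-making cells, averaged 0.630 CPM in DIK nose and 458 CPM in WT nose, and was at 0.481 CPM in WT mouth and 0.208 CPM in WT scrotum. WFDC2 and KRT18 had no count in DIK nose and averaged 131 and 111 CPM in WT nose, while LYZ ran the other way, at 256 CPM in DIK nose and 15.5 CPM in WT nose. The plasma cell genes, all 6 measured, summed to 38.5, 323 and 392 CPM in DIK nose. In WT nose they summed to 17.3, 22.4 and 63.9 CPM, and the ranges overlapped. JCHAIN, which joins antibody chains, made up most of the DIK nose sum, at a mean of 240.2 CPM against 5.84 CPM in WT nose. DERL3 of the same list ran the other way, at 1.99 CPM in DIK nose and 27.2 CPM in WT nose. The part of gland tissue or plasma cells in the HSPA5 difference at the nose label was not tested.

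HSPD1 and HSPE1 encode the chaperonin HSP60 and its co-chaperonin HSP10 of the mitochondrial matrix, and in mammals lie head to head and share a promoter region. HSPD1 had 38.6, 32.3 and 29.2 CPM in the nose tumours, against 121, 103 and 116 CPM in WT nose tissue. The nose groups were far apart, with a log2 difference of -1.76 ± 0.37 (SE; edgeR adjusted p = 9.5e-04). At the mouth label HSPD1 had 40.5, 24.8 and 32.5 CPM in DIK tumours, against 106, 35.6 and 39.9 CPM in WT tissue. The mouth call (-0.90 ± 0.36, edgeR adjusted p = 0.0463) was lost in 13 of the 18 fits that left out 1 library, and the difference was -0.25 (edgeR adjusted p = 0.518) without WT replicate 1, the highest WT mouth library. At the scrotum label HSPD1 had 39.4, 36.8 and 39.4 CPM in DIK tumours, against 84.8, 43.0 and 82.8 CPM in WT tissue. Here the groups did not overlap but the difference of -0.86 ± 0.36 missed the threshold (edgeR adjusted p = 0.0593), and it was -1.12 (edgeR adjusted p = 0.0121) without WT scrotum replicate 2. HSPE1 had 74.0, 52.8 and 45.0 CPM in the nose tumours, against 42.2, 71.9 and 121 CPM in WT nose tissue, with groups that overlapped. Its log2 differences of -0.48, 0.29 and -0.09 at the nose, mouth and scrotum labels did not pass (edgeR adjusted p = 0.326, 0.561 and 0.865).

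The balance of the pair differed between the DIK tumour and WT tissue libraries. The ratio HSPD1/HSPE1 was 0.521 to 0.829 in the DIK libraries and 0.815 to 2.86 in the WT libraries. Within each label every DIK ratio was below every WT ratio, and DIK was 2.11-fold lower on average (exact permutation p = 0.00025, adjusted over the 6 ratios 7.5e-04). The WT ratio also differed between labels, at 0.815 to 1.05 in scrotum and 1.41 to 1.86 in mouth tissue. The part of cell type in the difference of this ratio was not tested. Of 11 other mitochondrial chaperone genes, 2 were lower and none higher at the nose label, 1 higher and none lower at the mouth label, and 1 higher and 2 lower at the scrotum label. Their median log2 differences were -0.53, 0.28 and -0.57. HSPA9, the mitochondrial HSP70, was lower at the nose and scrotum labels (-1.43 and -1.42; edgeR adjusted p = 0.00386 and 0.0039). GRPEL1, its exchange factor, was higher at the mouth and scrotum labels (1.01 and 1.02; edgeR adjusted p = 0.0141 and 0.016).

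**Figure D5:**
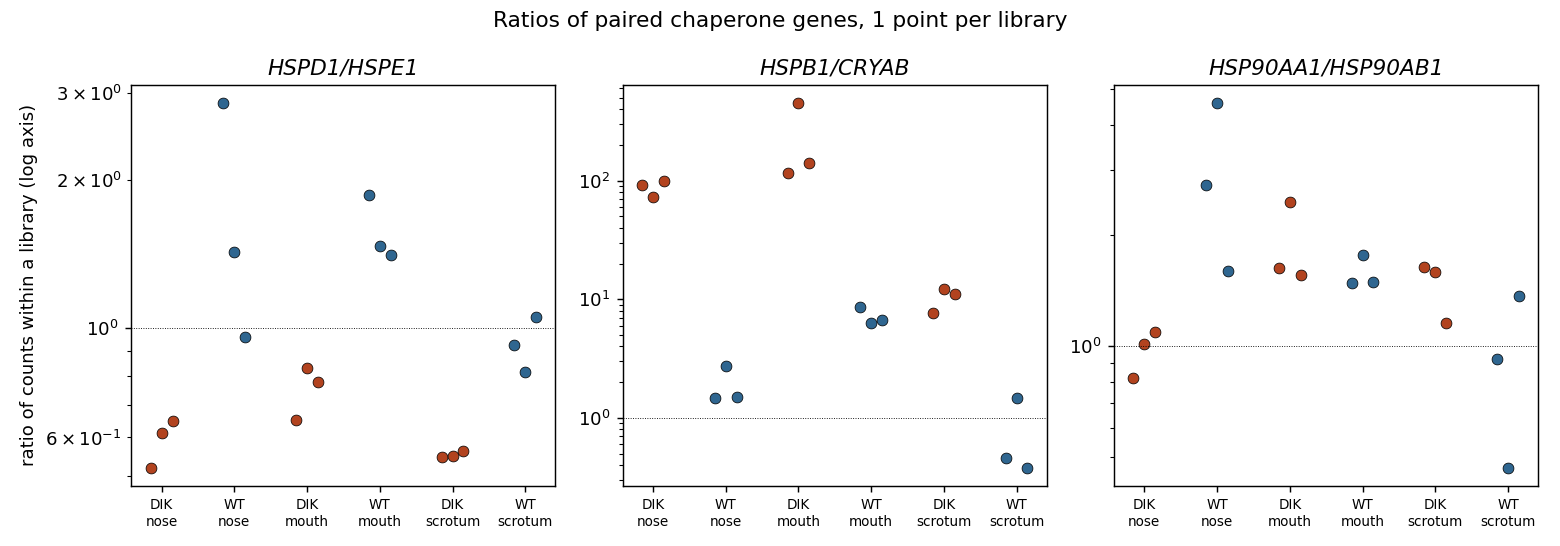
Ratio of counts within each library for 3 pairs of chaperone genes, on a log axis, with DIK tumours (red) beside WT tissue (blue) at each label. HSPD1/HSPE1 lies between 0.521 and 0.829 in the DIK libraries and between 0.815 and 2.86 in the WT libraries, and HSP90AA1/HSP90AB1 shows no such divide.

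Chaperones outside the families of the 10 genes were set beside them. TRiC, the cytosolic chaperonin that folds actin and tubulin, had 5, 8 and 7 of its 8 subunits higher at the nose, mouth and scrotum labels and none lower, with median log2 differences of 0.70, 1.04 and 1.03. CCT3, CCT4 and CCT5 were higher at all 3 labels, and CCT3 averaged 182 ± 8 CPM in the nose tumours and 80.0 ± 11.3 CPM in WT nose tissue (SD, n = 3 each). Prefoldin, which delivers actin and tubulin to TRiC, had 2, 3 and 3 of 6 subunits higher, and 1 lower at the scrotum label. Among 4 heat shock factor genes and their regulators, HSBP1, which binds and restrains heat shock factor, was higher at the nose and mouth labels (1.25 and 1.45; edgeR adjusted p = 0.00157 and 3.46e-04). HSF2 was lower at the scrotum label (-1.67, edgeR adjusted p = 0.00508). HSF1, the main factor of the heat shock response, which was named after its values were seen, was called at no label, with log2 differences of -0.80, 0.17 and 0.49 (edgeR adjusted p = 0.156, 0.769 and 0.362). Proliferation genes summed to 191 to 383 CPM in the DIK libraries and 7.68 to 62.6 CPM in the WT libraries, and their part in these counts was not tested.

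Between labels within a genotype, CRYAB and HSPA5 were each called in 5 of the 6 contrasts, though 3 of the HSPA5 calls were lost when single libraries were left out. Within WT, scrotum tissue had 23.9-fold more CRYAB than mouth tissue and 4.51-fold more than nose tissue, and mouth tissue had 5.30-fold less than nose tissue. The scrotum to nose call was lost without WT nose replicate 2 (edgeR adjusted p = 0.0711). Within DIK, the scrotum tumours had 10.6-fold more CRYAB than the nose tumours (edgeR adjusted p = 7.9e-04) and 14.8-fold more than the mouth tumours (edgeR adjusted p = 3.6e-04). Across the 3 WT contrasts 3, 3 and 4 of the 10 genes were called for mouth against nose, scrotum against nose and scrotum against mouth, where 19.8%, 6.05% and 23% of all genes were. Across the same DIK contrasts 2, 2 and 1 were called, where 1.54%, 5.84% and 2.88% of all genes were. HSPA5 was higher in the scrotum than in the nose tumours by 1.74 (log2; edgeR adjusted p = 0.0215), a call lost without DIK nose replicate 1 or 3 or without DIK scrotum replicate 1 or 2. The WT call of HSPA5 for scrotum against mouth (-1.29, edgeR adjusted p = 0.0351) was lost without WT mouth replicate 1 or 2 or without WT scrotum replicate 1 or 2 (adjusted p up to 0.122). DNAJB1 stayed within 0.09 (log2) between every pair of tumour labels and was called in none.

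With the 2 WT libraries that stood apart left out together, HSPA8 differed by 1.59, 2.66 and 2.15 (log2) at the nose, mouth and scrotum labels, DNAJB1 by 3.59, 3.67 and 5.0, CRYAB by -4.80, -2.89 and -3.90, and HSPA5 by -1.75, 2.62 and 2.56, and all of these were called. HSPD1 was then called at all 3 labels, at -1.75, -0.93 and -1.14.

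For each gene the measured genes with the most similar profile were found by Pearson's r of log2 CPM over the 18 libraries, among 6241 genes of at least 10 CPM on average; these r share the genotype and tissue of the libraries and are descriptions. DNAJB1 lay nearest to TMEM154 (r = 0.987), TMEM79 (0.986) and RAB24 (0.986). HSPA8 lay nearest to RHCG (0.960), CCT5 (0.948) and EIF4EBP1 (0.948), of which CCT5 is a TRiC subunit. CRYAB lay nearest to ALDOA (0.945), a glycolytic enzyme abundant in muscle. HSPD1 lay nearest to ACTR10 (0.931) and HSPA9 (0.928), while HSPE1 reached 0.788 at most, with NDUFA7, a subunit of respiratory complex I. HSPA5 lay nearest to HNRNPK (0.902) and DDOST (0.898), and DDOST is a subunit of the enzyme that adds sugars to proteins in the endoplasmic reticulum. HSP90AA1 had HSPA5 as its nearest gene (0.790), and among the 10 the pair HSPA8 and DNAJB1 came next (0.778).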

How the data were processed

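Read counts per gene were measured in 18 mRNA-seq libraries of pig tissue stored in RNAlater and extracted with TRIzol (VAHTS mRNA-seq V3 kit, per the labels' protocols). The deposited values are whole-number counts that the authors made with fastp, HISAT2 2.1.0 and HTSeq 0.11.2, per the submitters' processing notes; for the genome build, annotation, strand setting and treatment of multiply mapped reads, nothing is stated in the sources read. HSPA8, HSP90AA1, HSP90AB1, HSPB1, HSPD1 and HSPE1 can have near-identical copies, so their levels are uncertain where reads were split or dropped, and levels are not compared between genes because no transcript lengths were used.

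The members and all gene lists were chosen with earlier results of these data known. Genes passing edgeR's filterByExpr (12895 of 27339, holding at least 99.1% of each library's counts, with all 10 members among them) were fitted in edgeR 4.0.16 (R 4.3.3) with TMM scaling and a robust quasi-likelihood model with 1 mean per group over all 18 libraries. The contrasts set DIK against WT within a label and as a mean of the labels, took differences of that effect between labels, and set labels against each other within a genotype, each adjusted by the Benjamini-Hochberg method and called at 0.05. CPM were taken on TMM-scaled library sizes. The fit was also run on simulated data in which few genes changed. That run does not show how it performs where 42.1 to 46.9% of genes are called, as at the labels here. The common biological coefficient of variation was 36.1%.

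From each other list the genes named were up to 3 per direction called alike at all 3 labels with the largest mean difference, and up to 2 per label and direction whose groups did not overlap and whose higher group averaged at least 10 CPM, and the text gives some of these. The 3 nearest genes by Pearson's r were found for each member. Alternatives were other scalings, filters, DESeq2 1.42.0, limma 3.58.1 voom, a replicate block, the 2 groups compared alone, and leaving out libraries. Replicate numbers were not treated as pairs in the main fit. Deviations of same-numbered DIK and WT libraries of a label correlated at -0.05 to 0.09 in the 9 pairs. Those libraries come from different animals, so this could not show a shared animal. Between WT labels, same-numbered libraries reached 0.19 (nose and mouth, replicate 3) and -0.22 (mouth and scrotum, replicate 2). Whether WT libraries of different labels share an animal is not known. No sequence is shown.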

Additional observations from a re-analysis of the deposited data

Results flagged for a closer look

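The DIK minus WT difference of HSPA5 was unlike between labels by a test of the difference itself. It was greater at the mouth than at the nose label by 4.39 (log2; edgeR adjusted p = 2.46e-04), and between 3.87 and 4.75 when any 1 library was left out. It was greater at the scrotum than at the nose label by 4.58 (log2; edgeR adjusted p = 2.71e-04), and between 4.32 and 5.09 when any 1 library was left out. All 3 DIK libraries were below all 3 WT libraries at the nose label and above them at the other labels.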

How the results depend on the processing

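Of 1590 values recomputed under the alternatives for single genes and lists, 1433 kept their direction and side of the threshold, and the cause of the exceptions below was not tested. Members lower at the scrotum label numbered 2 under upper-quartile scaling, a filter of 10 CPM in 3 libraries, limma-voom, the replicate block and without the 2 WT libraries that stood apart (1 as reported), and members lower at the mouth label numbered 1 under limma-voom and with only the 2 groups compared (2 as reported). The replicate block also left 1 member called for mouth against nose tumours (2 as reported), as did no filter, and changed no other count of members by over 1.5 times. WT scrotum against mouth called 2 members with library size alone and with no filter (4 as reported). Interaction contrasts called 2 members by DESeq2 and 4 by limma-voom for mouth against nose, 2 by each for scrotum against nose, and 1 by limma-voom and 1 without both WT libraries for scrotum against mouth (1, 1 and 0 as reported). By limma-voom 6 members were called for WT mouth against nose (3 as reported) and 3 for DIK scrotum against mouth (1 as reported).

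Counts of all genes called moved as follows. DIK mouth against nose gave 323 by DESeq2, 1053 by limma-voom and 419 without both WT libraries (199 as reported). DIK scrotum against nose gave 2474 by limma-voom and 1311 without both (753), and DIK scrotum against mouth 1330 and 724 (372). The interactions gave 3337, 1901 and 2537 by limma-voom for mouth against nose, scrotum against nose and scrotum against mouth (1109, 986 and 1690), and WT mouth against nose 4421 (2558) and WT scrotum against nose 1320 (780).

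Leaving out 1 library gave 1 to 2 members lower at the mouth and scrotum labels. It gave 44 to 445 genes and 1 to 2 members for DIK mouth against nose, 176 to 737 genes for DIK scrotum against mouth, and 233 to 1362 genes and 1 to 3 members for DIK scrotum against nose. It gave 657 to 1748 genes and 1 to 2 members for the interaction of mouth and nose, 433 to 1285 and 1 to 2 for scrotum and nose, and 1118 to 2030 and 0 to 1 for scrotum and mouth. For WT it gave 1 to 5 members for mouth against nose, 1 to 4 for scrotum against mouth, and 270 to 1363 genes and 1 to 3 members for scrotum against nose. The log2 DNAJB1/HSPA8 ratio ranged from 1.20 to 2.01.

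Signs turned for HSP90AB1 at the mouth label (-0.032 with library size alone) and at the scrotum label (0.030 without both WT libraries, and -0.54 to 0.048 leaving out 1 library, the highest without WT scrotum replicate 2). They turned for HSPE1 at the mouth label (-0.014 without DIK mouth replicate 1, and up to 0.72) and at the scrotum label (-0.29 to 0.085, the highest without WT scrotum replicate 1). DNAJB1 in WT scrotum turned to -0.86 against nose and -0.76 against mouth by limma-voom, and to -1.32 and -1.28 without both WT libraries. Leaving out 1 library it ranged from -1.29 to 1.31 and from -1.27 to 1.34, the lowest without WT scrotum replicate 2. With library size alone the median of all genes moved to -0.29 at the mouth and -0.21 at the scrotum label, and higher genes were 36.1% of calls at the mouth label, against 48.2% as reported; upper-quartile scaling moved these medians to -0.15 and -0.17. Depth limits HSPH1 most, with as few as 1 count in a library.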
